A study of Mus musculus with 2 samples.

Results

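Lymphatic endothelial cells were the cells of injured mouse muscle that held RNA of the lymphatic genes Prox1, Mmrn1 and Ccl21a. A cell was a member if at least 2 of these 3 genes were detected (a value above 0), at least 1 of the endothelial genes Pecam1, Cdh5 and Flt4 was detected, and both Ptprc, the leukocyte gene for CD45, and Pdgfra, a gene of fibro-adipogenic progenitors (FAPs), were at 0. The members were therefore selected on measured values, and the levels of these 8 genes are description. The rule took 151 of 13432 cells: 73 of 6354 in the WT-labelled library and 78 of 7078 in the KO-labelled library. The study compared male C57BL/6J wild-type mice with mice that lack Gsdme, the gene of the pore-forming protein gasdermin E, in all tissues; mouse age is not given in the sources used here. Gastrocnemius muscle of both groups was injured with cardiotoxin (CTX), a snake venom toxin that destroys muscle fibers, and was dissociated on day 14. The methods give 5 mice per genotype, but there was 1 library per genotype and pooling is not stated, so no test between genotypes was possible and no p-value is given. No uninjured muscle was compared here. Levels are CPM, the unique molecular identifiers (UMIs, 1 per captured RNA molecule) of a gene per 1000000 UMIs after summing over all cells in that group; intervals are exact 95% intervals that cover counting error only. Where 2 values stand together without further mention, the first is from the WT-labelled library and the second from the KO-labelled library.

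Lymphatic endothelium lines blind-ended capillaries, which take up fluid, macromolecules and leukocytes from tissue, and collecting vessels with valves, which carry them onward. The transcription factor Prox1 sets and keeps lymphatic identity, the receptor VEGFR-3 (Flt4) carries the growth signal of Vegfc and Vegfd, and the chemokine Ccl21a draws Ccr7-bearing dendritic cells and T cells. Capillary cells are known for Lyve1, a hyaluronan receptor, whereas collecting vessels and valves carry less of it. In muscle, lymphatic vessels run with the larger blood vessels.

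The label of the libraries was checked first. Gsdme itself was read at 225 and 237 UMIs over all cells and at 2 and 2 UMIs in the members, and its log2 ratio of KO over WT over all cells was -0.11 (-0.38 to 0.16). A lower level in the KO-labelled library was thus not detectable, and a deletion that leaves the 5′ end of the transcript in place would not be seen by this 5′ assay; every direction below is between the libraries as labelled. Members held 685200 and 727954 UMIs in all, and the median cell had 5335 and 4275, with cells from 420 to 58320 and from 544 to 79159. The 5 deepest members of each library held 34.1% and 34.3% of these UMIs, so a summed level leans on few cells. A gene without a UMI in the members could still lie at up to 4.38 and 4.12 CPM (3 UMIs per library). The libraries shared 4 barcode sequences.

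Within the members, 10 cells stood apart by genes of other cells: 6 in the WT-labelled library and 4 in the KO-labelled library held at least 5 UMIs of Rgs5 (pericytes) or Flt1 (blood endothelium), 10 of Dcn (FAPs) or 20 of Cd74 (antigen-presenting cells). They held 21.4% and 13.3% of the members' UMIs, but 337 of 345 and 661 of 668 of the Rgs5 UMIs and 95 of 98 and 93 of 95 of the Flt1 UMIs. In 4 of the 6 and 1 of the 4, Lyve1 and Mmrn1 were at 0, and a single Ccl21a UMI beside 1 to 3 of Prox1 had made the cell a member. The 12 pericyte markers summed to 756 and 1154 CPM over the members and to 74.2 and 55.5 CPM without these 10 cells. The 12 FAP markers summed to 749 and 1175 CPM with them and 728 and 640.2 without, with Pdgfra at 0 by the rule. Macrophage markers were scarce: 12 genes summed to 36.5 and 49.5 CPM, and the defining marker Adgre1 was at 0. T and B cell markers summed to 33.6 and 35.7 CPM with 7 of 12 genes at 0, Cd3e and Ms4a1 among them; Schwann cell markers summed to 212 and 219.8 CPM with Sox10 at 0, and muscle fiber markers to 153 and 181 CPM. Hemoglobin RNA, which leaks from red cells, was low in the members at 17.5 and 34.3 CPM, against 1238 and 7770.5 CPM in blood endothelial cells. Ratios between the libraries that cross the fold without the 10 cells are given both ways.

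Among the rule's genes, Ccl21a has near-identical copies in the genome. Ccl21a (GRCm38, chr4:42772860-42773993, minus strand) and Ccl21b (chr4:42255767-42256432, plus strand) have coding sequences of 402 bases in GENCODE vM21 that differ at 2 positions, T84A and C194T, counted from 1 at the first base of the start codon with the base of Ccl21a first, an identity of 99.5%. The gene models Gm10591, Gm13304 and Gm21541 on the same chromosome carry the same 2 differences. Coding bases 55 to 114 are shown because they hold the first of the differences by which a read could be told apart, in capitals:

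Ccl21a: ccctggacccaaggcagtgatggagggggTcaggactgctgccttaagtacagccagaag
Ccl21b: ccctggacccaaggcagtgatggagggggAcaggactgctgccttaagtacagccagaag

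A read of the coding sequence that covers neither position matches each of the 5 genes equally. The Ccl21a values may therefore include reads of a near-identical copy, and how such reads were counted was not checked. None of the copies is listed among the genes of the data.

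All 3 lymphatic genes were detected in 54 and 66 members, and exactly 2 in 19 and 12, most often Mmrn1 with Ccl21a (11 and 10). Genes that the rule did not read were used to look at its threshold, as description. Lyve1 stood at 1715 and 2031 CPM in members with all 3 genes and at 414 and 1047 CPM in those with 2. The latter include the 4 and 1 cells set apart in which Lyve1 and Mmrn1 were at 0. These cells were deep (9872 to 45643 UMIs and 50700 UMIs), so they lower the summed Lyve1 level of members with 2 genes. Lyve1 was detected in 36.8% and 83.3% of members with 2 genes, and in 83.3% and 83.3% of those with all 3. Just outside, the 118 and 119 cells with 1 of the 3 genes (in 86 and 103 of them Prox1) held 6.94 and 6.92 CPM of Lyve1 and 3.47 and 9.0 CPM of Reln, a secreted lymphatic protein. They carried blood vessel RNA instead: Flt1 stood at 1294 and 1575 CPM and Rgs5 at 3437 and 4616 CPM. Summed over members with exactly 2 genes, Rgs5 stood at 2795 and 6413 CPM, against 24.7 and 273 CPM where all 3 were detected. Nearly all of it was in the same 4 and 1 cells set apart. They held 210, 65, 43 and 11 of 331 UMIs in the WT-labelled library and 488 of 490 in the KO-labelled library. Rgs5 was detected in 31.6% and 25% of members with 2 genes.

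Lymphatic endothelial cells made up 1.15% (0.902 to 1.44) of the cells in the WT-labelled library and 1.1% (0.872 to 1.37) in the KO-labelled library. The difference was -0.0469 percentage points, with an interval from -0.412 to 0.311, so at this depth no difference was detectable. Among endothelial cells (the members plus 1124 and 1045 blood endothelial cells), they made up 6.1% (4.81 to 7.61) and 6.95% (5.53 to 8.59); the KO-labelled share lay higher by 0.847 points (-1.17 to 2.89).

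The members were set against blood endothelial cells, in which Pecam1 and Cdh5 were both detected and the 3 lymphatic genes, Ptprc, Pdgfra and 3 pericyte genes were at 0. Genes the rules had read were left out. Of 11783 genes with at least 20 UMIs, 444 (3.77%) were higher in lymphatic cells in both libraries and 573 (4.86%) lower, each past a log2 ratio of 1 in size after 10 CPM had been added to each level ("past the fold" from here on). Of the 35 tested genes on a list of lymphatic identity genes, 28 were higher and 0 lower, with median log2 ratios of 2.62 and 2.98, against -0.06 and -0.02 over all genes. Genes that the rule did not read thus went with the label, but the list was chosen with earlier results of these data known, so this is description.

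Lyve1 led the ranking. It stood at 1490.1 (1400.1 to 1584) and 1927 CPM (1828 to 2031), against 2.43 and 0.745 CPM in blood endothelial cells, log2 ratios of 6.92 and 7.49. After each cell was thinned to 1000 UMIs (9 and 5 shallower members left out), Lyve1 was detected in 59.4% (46.4 to 71.5) and 65.8% (53.7 to 76.5) of members, or 71.2% and 83.3% before thinning, while FAPs, which should lack it, had it in 0.218% and 0.0562%; the median depths were 5335 and 4275 UMIs in members and 7992 and 8603 in FAPs. The share in members lay far above that background. Next came Reln (679 and 867 CPM, log2 5.91 and 6.38), which lymphatic cells secrete, Nts, the peptide neurotensin (1938 and 1181 CPM, log2 6.74 and 5.79), and Fgl2, a fibrinogen-like protein (2388 and 2844 CPM, log2 5.61 and 6.0). In blood endothelial cells Reln stood at 1.46 and 0.559 CPM, Nts at 8.26 and 11.6 and Fgl2 at 39.2 and 34.5. Transcription factors of lymphatic cells were high as well: Maf (log2 4.9 and 5.61), which acts in lymphatic maturation, Tbx1 (3.53 and 3.73), Foxc2 of valves (2.48 and 2.62) and Nr2f2 (2.39 and 2.68), the partner of Prox1 that also marks veins. By contrast Sox18, which switches Prox1 on in the embryo, was not higher (-0.82 and -0.95). The guidance proteins Sema3d (4.33 and 4.55), Sema3a (2.38 and 2.42) and Ntn1 (4.36 and 5.04), the glycoproteins Pdpn (3.72 and 4.24) and Thy1 (4.96 and 5.14), and the scavenger receptor Stab1 (2.89 and 3.1) were higher in lymphatic cells in both libraries. Stab2, which marks lymph node and liver sinuses, was at 0 UMIs in both.

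**Figure D1:**
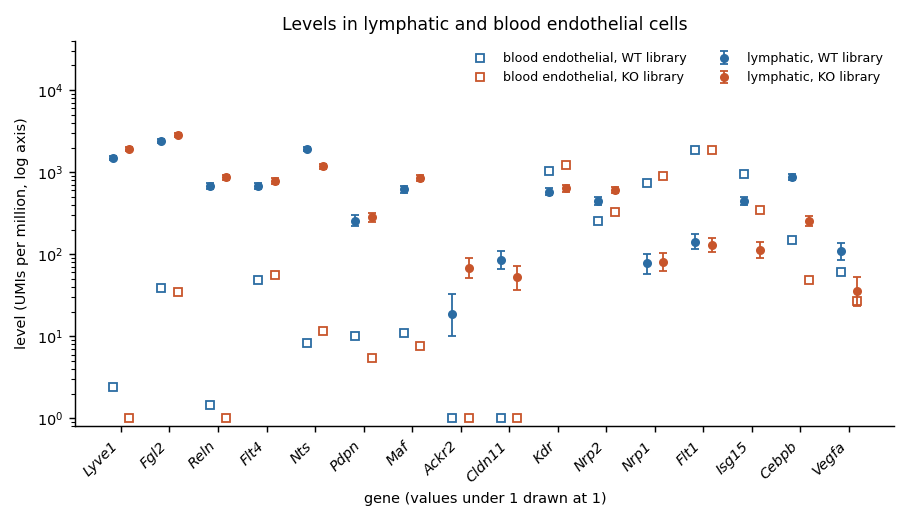
Levels (CPM, log axis) of 16 genes in lymphatic endothelial cells (filled circles, exact Poisson 95% intervals) and blood endothelial cells (open squares) of the libraries labelled WT (blue) and KO (orange); values under 1 CPM are drawn at 1. Lyve1, at 1490.1 and 1927 CPM, lies far above its level in blood endothelial cells, whereas Flt1 and Nrp1 lie far below theirs; Flt4 was read by the rule.

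The 20 highest genes also held Pard6g, a cell polarity protein (log2 5.33 and 5.58), the iron and copper proteins Lcn2 (4.93 and 4.61) and Cp (4.44 and 4.81), the lipopolysaccharide-binding protein Lbp (4.55 and 4.8), Igfbp5 (4.38 and 4.65), which binds insulin-like growth factors, and the sodium channel Scn3a (4.3 and 4.71). They were read in many members: Scn3a, the least widespread of the 6, in 34 and 42 cells, and Cp in 56 and 57 cells. Genes of blood capillaries were low. Of 33 blood endothelial genes tested, 23 were past the fold toward blood and 0 toward lymph (median log2 -2.1 and -2.46). Over all genes, 4.86% were past it toward blood and 3.77% toward lymph. Flt1, the VEGF receptor of blood endothelium, stood at 143 and 131 CPM, against 1859 and 1866 CPM (log2 -3.61 and -3.74), and nearly all of its RNA came from the 10 cells set apart; without them the ratios were -6.91 and -7.15. Aplnr, the apelin receptor (-3.44 and -4.38), Jam2, a junction protein (-3.52 and -3.52), Sox17 of arteries (-3.16 and -2.46) and Cxcl12 (-3.32 and -2.96) were low too. The fatty acid carrier Fabp4 stood at 1699 and 892 CPM, against 17255 and 16566 CPM, and 1143 of its 1164 and 619 of its 649 UMIs were in the 10 cells. Of 20 junction genes tested, 2 were past the fold toward lymph and 4 toward blood (median -0.31 and -0.46); Cldn5, a tight junction gene of endothelium, had log2 ratios of 0.56 and 0.24.

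**Figure D2:**
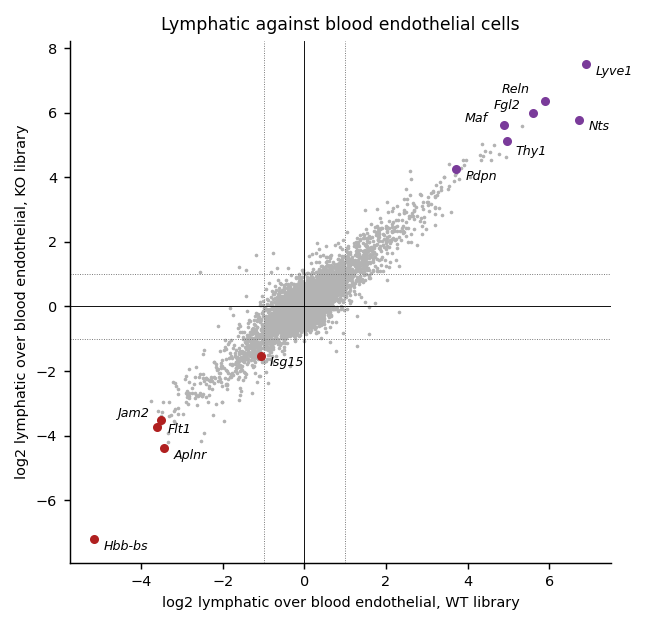
Log2 ratio of lymphatic over blood endothelial cells (10 CPM added) in the WT-labelled library (x axis) and the KO-labelled library (y axis), 1 point per gene, without the genes that the rule and the gates read; dotted lines mark a log2 ratio of 1 in size. Genes fall along the diagonal: Lyve1 lies at 6.92 and 7.49 and Aplnr at -3.44 and -4.38.

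Interferon-stimulated genes, which respond to antiviral cytokines, were lower in lymphatic than in blood endothelial cells: 25 of 38 tested were past the fold downward and 1 upward (median -1.38 and -1.42). For this and the next lists, the shares over all genes were 4.86% downward and 3.77% upward. The interferon gene past the fold upward was Ifi27l2a (571 and 484 CPM, log2 1.49 and 1.75). Antigen presentation genes were lower in 7 of 20 and higher in 0; the class I gene H2-K1, for example, had log2 ratios of -1.0 and -1.26. Flow-response genes were past the fold toward blood in 8 of 25 and toward lymph in 1. Toward blood lay Id1 (-2.4 and -2.4) and Smad7 (-2.17 and -1.89), both targets of bone morphogenetic protein signaling, while Klf2 (-0.62 and -0.46) and Klf4 (0.31 and 0.69), which shear stress induces, were not. Of 43 basement membrane and matrix genes, 8 were higher and 12 lower: Fn1 (fibronectin, 1.86 and 2.74) and Timp2 (3.42 and 4.0) were high, whereas Sparc (-2.51 and -2.78) and the basement membrane collagens Col4a1 (-1.52 and -1.57) and Col15a1 (-2.01 and -2.95) were low.

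The receptors of the VEGFC axis were read in the members, whereas the ligands Vegfc and Vegfd were at most at a few UMIs. Flt4, which the rule reads, stood at 684 and 789 CPM, its partner Kdr at 576 (521 to 636) and 637 CPM (581 to 698) (blood endothelial cells, 1041 and 1239.7), and the co-receptor Nrp2 at 445 and 609.9 CPM (255 and 326). Nrp1, the co-receptor of blood vessels, was at 77.3 and 81.05 CPM, against 742 and 905 CPM. The pair Nrp2 and Nrp1 thus ran in opposite directions, by log2 0.78 and 0.89 and -3.11 and -3.33. Vegfc was read at 2 and 2 UMIs and Vegfd at 0 and 6 UMIs in the members. In FAPs, Vegfc stood at 20.96 and 13.6 CPM and Vegfd at 14.5 and 16.02; in blood endothelial cells Vegfc stood at 32.7 and 25.9 CPM. The factors that process or present VEGF-C were read in FAPs too: Ccbe1 at 26.8 and 41.6 CPM and Svep1 at 227 and 264 CPM, both at 0 UMIs in the members. Among the Tie receptors, Tie1 stood at 438 and 369.5 CPM and Tek at 59.8 and 94.8 CPM (log2 against blood, -1.54 and -1.18). Their ligand Angpt2 was at 126 and 109 CPM (1.46 and 1.09), whereas Angpt1 was at 0 UMIs in the members and at 42.8 and 57.2 CPM in FAPs. For adrenomedullin, a peptide needed for lymphatic growth, the receptor Calcrl (201 and 251 CPM) was read with Ramp2 (569 and 579.7 CPM) but without Ramp3 (0 UMIs). Over the list, 3 of 25 genes were past the fold toward lymph and 5 toward blood, against 3.77% and 4.86% over all genes.

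Genes of leukocyte traffic were split, 10 of 40 toward lymph and 12 toward blood, against 3.77% and 4.86% over all genes. Ccl21a was read at 14062 and 13643 UMIs, and the lowest, median and highest member held 0, 213 and 647 per 10000 UMIs in the WT-labelled library and 0.197, 208 and 854 in the KO-labelled library. Its receptor Ccr7 had 0 and 1 UMIs in the members. Ccl2, which draws monocytes, stood at 382 and 496 CPM (log2 2.43 and 3.33), but 1 cell of the KO-labelled library held 203 of its 361 UMIs there. Il7, the T cell growth factor that lymphatic vessels supply, was at 51.1 and 109.9 CPM, against 0.162 and 0.932 CPM in blood endothelial cells. Spns2, which exports sphingosine 1-phosphate, was higher in lymphatic cells (1.11 and 1.13), while its receptor S1pr1 was lower (-1.18 and -1.52). The decoy receptor Ackr2, which removes inflammatory chemokines at lymphatic surfaces, was at 18.97 and 68.7 CPM, against 0.324 and 0 CPM. On the blood side stood Cxcl12, Jam2, Esam (-2.83 and -2.82), Cxcl9 (-2.54 and -4.15) and Sema7a (-2.48 and -2.21).

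The members differed among themselves in Lyve1 and Nts. For Lyve1, the lowest, median and highest member held 0, 17.9 and 72.8 per 10000 UMIs in the WT-labelled library and 0, 18.3 and 67.6 in the KO-labelled library (members of at least 1000 UMIs). For Nts, the lowest, median and highest member held 0, 2.59 and 138 per 10000 UMIs in the WT-labelled library and 0, 0 and 188 in the KO-labelled library, and 27 of 64 and 41 of 73 of these members had none. Nts was thus an uneven gene: the 5 members with the most Nts held 54.7% and 66.3% of its UMIs, against 38.3% and 31.7% for Reln. Across the 111 members with at least 2000 UMIs, Spearman's rho was 0.57 for Lyve1 with Flt4, 0.56 with Mmrn1, 0.51 with Reln and 0.42 with Stab1. It was -0.21 for Lyve1 with Nts and -0.17 with Prox1. These cells share 2 libraries and the rule, and the values describe them only.

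Cldn11, a tight junction gene of lymphatic valves and collecting vessels, marked a small group. With the 10 cells set apart left out, 9 of 67 and 8 of 74 members held a Cldn11 UMI, 6 and 5 of them 2 or more. Lyve1 was lower in them than in the other members, 266 against 2246 CPM in the WT-labelled library and 1056 against 2706 CPM in the KO-labelled library (log2 -3.03 and -1.35). In the KO-labelled library, 169 of the group's 230 Lyve1 UMIs were in 1 deep cell (79159 UMIs) with 1 Cldn11 UMI. Nts ran the other way, 4396 against 1399 CPM in the WT-labelled library and 1795 against 1130.2 CPM in the KO-labelled library (log2 1.65 and 0.66). Alongside Lyve1, the capillary genes Reln (-2.15 and -0.93) and Pdpn (-1.79 and -0.70) were lower in Cldn11-bearing members of both libraries. So were the identity gene Fgl2 (-1.35 and -0.72) and the rule genes Ccl21a (-2.1 and -1.0) and Mmrn1 (-2.39 and -0.94). The capillary genes Ptx3 (-2.28 and -0.60), Piezo2 (-2.17 and -0.27) and Itih5 (-3.31 and -0.71) had lower values, with KO-labelled intervals that included 0. The capillary gene Sema3a went the other way in the WT-labelled library (1.74) and had 0.01 in the KO-labelled library. Higher in both were Prox1 (1.15 and 0.48), Fn1 (1.94 and 1.44), whose fibronectin forms the core of valve leaflets and the netrin receptor Neo1 (2.58 and 2.78). The valve factors Gata2 (2.81 and 0.28) and Foxc2 (1.82 and -0.26) and the connexin Gja4 (1.37 and 0.81) were higher in such members of the WT-labelled library, and in the KO-labelled library their intervals included 0, from -0.85 to 1.47, from -1.41 to 0.72 and from -0.45 to 2.67. Cells with a Cldn11 UMI were deeper, with a median of 7615 and 23075 UMIs against 4678.5 and 3849.5. Among members with at least 5000 UMIs only (6 against 26 and 7 against 22 cells), the log2 ratios were -3.86 and -1.39 for Lyve1 and 1.56 and 0.59 for Nts. The deep KO-labelled cell with most of the group's Lyve1 UMIs was kept in this check. The group was picked on Cldn11 after values had been seen, and cells of 1 library are not replicates, so these are descriptions.

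**Figure D3:**
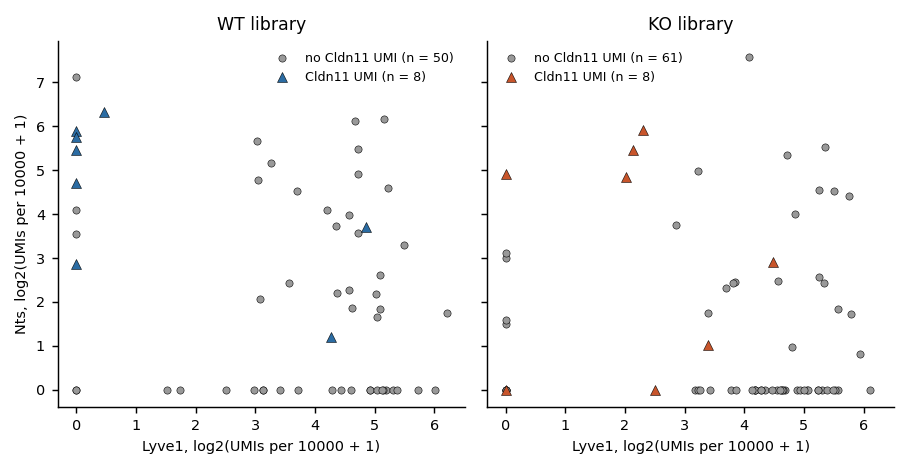
Lyve1 (x axis) against Nts (y axis) in each member of at least 1000 UMIs, both as log2(UMIs per 10000 + 1), for the WT-labelled and KO-labelled libraries without the 10 cells set apart; triangles are members with a Cldn11 UMI. In the WT-labelled library most triangles lie at or near 0 on the Lyve1 axis with Nts above 0; Lyve1-high members spread from no Nts to high Nts.

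Over the lists, 6 of 7 capillary genes and 8 of 18 collecting vessel and valve genes were past the fold toward lymph, and 2 of the latter (Clu and Bmp4) toward blood. The shares over all genes were 3.77% and 4.86%. The capillary gene outside the count, Itih5, had log2 ratios of 0.49 and 1.0. Cldn11 (3.2 and 2.53), Itga9, the fibronectin and tenascin receptor of valves (2.83 and 2.66), and Foxc2 were high, whereas Efnb2 (0.07 and -0.10), Foxc1 (0.01 and -0.03) and Gja1 (0.08 and 0.00) were at blood endothelial levels.

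Between the libraries, most tested genes of the lymphatic identity, interferon and inflammatory lists were not past the fold. The counts that were past it stand beside the shares over all genes. Of 7212 genes with at least 20 UMIs in the members, 94 (1.3%) were past the fold upward in the KO-labelled library and 60 (0.832%) downward; over the same genes in blood endothelial cells the counts were 17 (0.236%) and 19 (0.263%). Blood endothelial cells held 6177102 and 5366848 UMIs, far more than the members, so the counts are not at equal depth. With 1 library per genotype, a difference between animals, dissociations or captures cannot be told apart from one between genotypes. Fewer cells in a state and less RNA per cell cannot be told apart in a summed level either. The 6 markers of the label had log2 ratios of KO over WT from -0.71 to 0.37: Prox1 -0.15 (-0.33 to 0.02), Mmrn1 0.24 (0.14 to 0.34), Ccl21a -0.13 (-0.17 to -0.10), Flt4 0.20 (0.03 to 0.38), Lyve1 0.37 (0.25 to 0.49) and Nts -0.71 (-0.84 to -0.59). None was past the fold. Intervals beside log2 ratios, here and below, are those of the ratio without added CPM. Nts was detected in 39 and 32 cells, and without the 10 cells set apart its ratio was -0.57. Of 35 identity genes tested, 2 were past the fold upward and 0 downward, with a median of 0.23 against 0.06 over all genes; 28 were above 0 and 7 below, against 4108 and 3104 over all genes. The 2 were Ackr2 and Rspo3, a Wnt agonist (4 and 17 UMIs, 1.07). Capillary genes had a median of 0.30 (7 tested, 0 past the fold) and collecting vessel and valve genes one of -0.20 (16 tested, 0 past the fold). Ackr2 stood at 18.97 (10.1 to 32.4) and 68.7 CPM (50.98 to 90.6), a log2 ratio of 1.44, and was detected in 10 and 25 cells, with at most 3 and 6 UMIs in a cell, so the difference was spread over many members. Without the 10 cells set apart it was 1.39, and without the 5 deepest members of each library 1.55. Piezo2, a stretch-gated channel (0.73, 0.39 to 1.16), Apold1, an early response gene of endothelium (0.80, 0.65 to 0.97), and Il7 (0.97, 0.52 to 1.72) were higher without passing the fold.

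Most interferon-stimulated genes had lower values in the KO-labelled library, and 3 passed the fold. Of 27 tested, 0 were past the fold upward and 3 downward, against 1.3% and 0.832% over all genes, and 22 lay below 0. The median was -0.50 in the members and -0.19 in blood endothelial cells. Without the 10 cells set apart, the median in the members was -0.29. The 3 past the fold were Isg15, a ubiquitin-like protein, Ifit1, which binds foreign RNA, and Rsad2 (viperin), which blocks viral replication. Isg15 stood at 442 (394 to 495) and 114 CPM (90.8 to 141), a log2 ratio of -1.87, and was detected in 37 and 24 cells. Of the members, 15 and 4 held 5 or more Isg15 UMIs, the 6 WT-labelled cells set apart among them. Per cell, the lowest, median and highest member held 0, 0.921 and 37.6 per 10000 UMIs in the WT-labelled library and 0, 0 and 8.61 in the KO-labelled library. The ranges of the libraries overlapped, and the highest values were in the WT-labelled library. Ifit1 was read at 67 and 9 UMIs in 15 and 5 cells (-2.27), and Rsad2 at 41 and 5 UMIs in 9 and 3 cells (-2.05). Much of this came from the 10 cells set apart. Those of the WT-labelled library held 12, 10, 6, 4, 4 and 2 of the 41 Rsad2 UMIs. They also held 15, 13, 8, 5, 5 and 3 of the 67 Ifit1 UMIs and 49, 37, 29, 22, 10 and 5 of the 303 Isg15 UMIs. In the KO-labelled library, 2 of them held 3 and 1 of 5 Rsad2, 2 and 1 of 9 Ifit1 and 19 and 5 of 83 Isg15 UMIs. Without the 10 cells the ratios were -1.49 for Isg15, -1.15 for Ifit1 and -0.43 for Rsad2, which was then no longer past the fold. In blood endothelial cells the 3 ratios were -1.42, -0.68 and -0.92, in FAPs -1.59, -0.59 and -1.02, and in macrophages -0.34, 0.24 and 0.04. Summed over the 38 genes, the list stood at 6668 and 4558 CPM in the members, at 5277 and 4272 CPM without the 10 cells set apart, which held 1726 of 4569 and 622 of 3318 of these UMIs, and at 12468 and 10108 CPM in blood endothelial cells. Per member, its median was 56.3 and 37.9 per 10000 UMIs, with ranges from 13.7 to 306 and from 6.33 to 118. Bst2 (tetherin, 706 and 356 CPM, -0.97) and the membrane protein Ifitm3 (2687 and 1859 CPM, -0.53) were lower without passing the fold, whereas Ifitm2 (-0.03) and Irgm2 (0.07) were near equal. Above 0 lay Stat2 (0.44, -0.27 to 1.43), Ifi44 (0.14) and Ifi203 (0.71), whose KO-labelled UMIs were mostly from 1 cell (27 of 36).

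**Figure D4:**
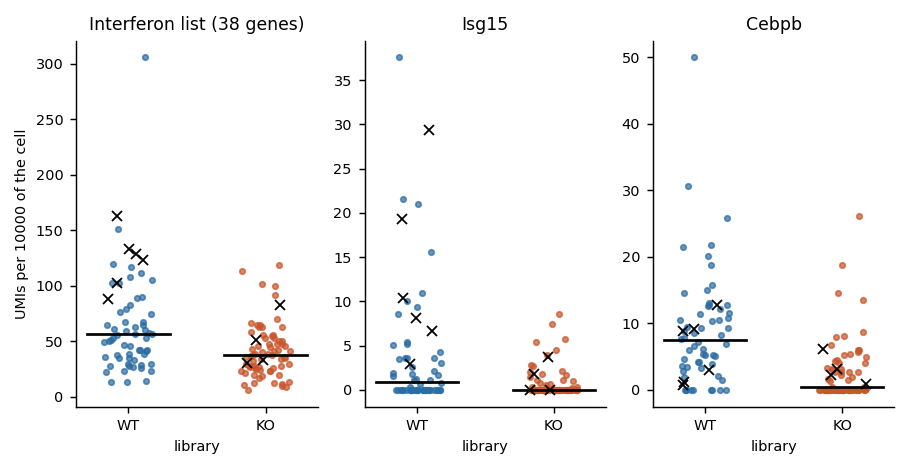
UMIs per 10000 of the cell for the 38 interferon genes together, Isg15 and Cebpb in each member of at least 1000 UMIs (points; bars are medians; crosses are the 10 cells set apart), by library. The medians are lower in the KO-labelled library in each panel, 56.3 and 37.9 for the list, and the ranges overlap.

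Interferon-stimulated genes share a promoter element bound by transcription factors that interferon activates. The letters GAAA, any 2 bases and again GAAA, a core of this element, were searched on both strands of the RefSeq promoter windows (GRCm38.p6, 250 bases before to 50 after a gene's start). They were found in 1131 of 32851 windows (3.44%), and in 21 of the 30 listed interferon genes that have a window. The 150 bases before the start of the 3 genes past the fold are shown because their RNA differed most within the list, with matches in capitals:

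Isg15 (chr4:156200819-156200968, minus strand): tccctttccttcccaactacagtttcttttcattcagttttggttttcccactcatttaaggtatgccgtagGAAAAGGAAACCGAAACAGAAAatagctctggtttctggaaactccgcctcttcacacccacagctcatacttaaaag
Ifit1 (chr19:34640739-34640888, plus strand): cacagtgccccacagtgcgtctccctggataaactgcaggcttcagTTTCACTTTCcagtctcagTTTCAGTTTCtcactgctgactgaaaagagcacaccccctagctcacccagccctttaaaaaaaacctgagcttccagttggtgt
Rsad2 (chr12:26456453-26456602, minus strand): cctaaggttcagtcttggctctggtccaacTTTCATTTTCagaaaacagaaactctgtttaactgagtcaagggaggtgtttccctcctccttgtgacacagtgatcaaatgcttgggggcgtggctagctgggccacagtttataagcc

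Isg15 held 3 matches, which overlap. Ifit1 held 2 and Rsad2 1, all on the other strand. A match describes the letters and is no measure of binding in these cells.

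Cebpb was lower in the KO-labelled library across the members. This transcription factor of inflammation and fat cell formation stood at 877 (808 to 950.1) and 254 CPM (219 to 294), a log2 ratio of -1.75 (-2.03 to -1.55 without added CPM). Per cell, the lowest, median and highest member held 0, 7.45 and 49.99 per 10000 UMIs in the WT-labelled library and 0, 0.478 and 26.1 in the KO-labelled library. After thinning it was detected in 57.8% (44.8 to 70.1) and 15.1% (7.77 to 25.4) of members (79.5% and 51.3% before), and in 45.01% and 22.8% of FAPs. The ranges of the libraries overlapped. Its ratio was -1.81 without the 10 cells set apart and -1.76 without the deepest members. Other cell types showed it too, with ratios of -1.44 in blood endothelial cells, -1.52 in FAPs and -1.31 in macrophages. Its relative Cebpd had a ratio of 0.32 in the members. Tpm3-rs7, a gene similar to Tpm3 whose reads can be split between the copies, was read at 295 and 5 UMIs in the members (-4.71). Tpm3, named after its values were seen, ran the other way at 214 and 520 UMIs (1.17), and the sum of both was 509 and 525 UMIs (-0.04), so the difference at Tpm3-rs7 alone is uncertain. Il6, an acute inflammatory cytokine, was read at 1 and 83 UMIs in 1 and 10 cells, a log2 ratio of 3.44, or 6.29 (3.77 to 11.61) without added CPM. A single cell held 62 of the KO-labelled UMIs; without the 10 cells set apart and without the deepest members the ratios were 2.0 and 2.14. Blood endothelial cells (1.66) and FAPs (1.73) also held more Il6 in the KO-labelled library. Of 27 NF-kB and acute inflammation genes tested, 1 (Il6) was past the fold upward and 2 (Cebpb and Vcam1) downward, with a median of 0.20. The shares over all genes were 1.3% upward and 0.832% downward. Nfkb1 itself was higher (0.72, 0.42 to 1.1) and its inhibitor Nfkbia lower (-0.54, -0.67 to -0.41). The leukocyte adhesion gene Icam1 was near equal (499 and 570.1 CPM, 0.19). Vcam1 had 19 and 3 UMIs, a log2 ratio of -2.75 (-5.15 to -0.99) without added CPM and -1.42 with it, and the latter was -0.39 without the 10 cells.

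The growth factor genes Vegfa and Pgf were lower in the KO-labelled library. Vegfa stood at 109 (86.1 to 137) and 35.7 CPM (23.3 to 52.3) in 29 and 17 cells, a log2 ratio of -1.39, which was -1.38 without the 10 cells set apart and -1.27 without the deepest members. Pgf, the placental growth factor, stood at 199.9 and 100.3 CPM (-0.93, -1.43 to -0.58), while the interval of Vegfb included 0 at 39.4 and 21.98 CPM (-0.63, -1.83 to 0.10). In blood endothelial cells, the ratios were -0.95, -0.26 and 0.06. The receptors had smaller ratios: Flt4 0.20, Kdr 0.14 (-0.05 to 0.34), Nrp2 0.45 (0.24 to 0.67) and Tek 0.59 (0.09 to 1.26). Over the 22 genes of the axis that were tested, 0 were past the fold upward and 1 (Vegfa) downward, and the median was 0.03. All genes together had 1.3% upward and 0.832% downward. The remaining 10 listed genes, Vegfc, Vegfd and Ccbe1 among them, had fewer than 20 UMIs. Hmox1, the heme-degrading enzyme, was lower as well (1416 and 823 CPM, -0.78, -0.93 to -0.63), also in blood endothelial cells (-0.98). Pparg, a nuclear receptor of lipid metabolism, was read at 27 and 8 UMIs in 19 and 7 cells (-1.23; -1.37 without the 10 cells). The immediate early gene Zfp36, which degrades cytokine RNA (0.92, 0.75 to 1.11), Fos (0.54, 0.46 to 0.63) and the thioredoxin inhibitor Txnip (0.87, 0.68 to 1.09) were higher. Agpat4, an enzyme of phospholipid synthesis, was read at 8 and 46 UMIs in 5 and 18 cells (1.76), with ratios of 1.32 in blood endothelial cells and 2.02 in FAPs.

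Several of the largest ratios rested on 1 cell. Antigen presentation genes had 5 of 17 past the fold downward and 0 upward, against 0.832% and 1.3% over all genes, with a median of -0.50. Cd74, which escorts class II molecules, was read at 238 and 24 UMIs, but 227 of the WT-labelled UMIs were in 1 of the cells set apart, which also held 52 of 58 H2-Eb1 and 40 of 45 H2-Aa UMIs beside 1342 of Ccl21a. Without the 10 cells the log2 ratios turned from -3.06, -2.08 and -1.76 to 0.56, 0.13 and 0.23, and the median of the same 17 genes to 0.13. The checkpoint ligand Cd274 went from -1.98 to -0.06 in the same way. Class I genes were somewhat lower with all members (H2-K1 -0.40, H2-D1 -0.37, H2-T23 -0.84) and had ratios of 0.00, -0.18 and -0.55 without the 10 cells. Likewise, Igfbp6, Mfap5 and Pi16, genes of FAPs, had ratios of 2.42, 2.31 and 2.24, and 49 of 60, 40 of 50 and 36 of 42 of their KO-labelled UMIs were in 1 cell with 68 Dcn UMIs. Without the 10 cells the ratios were 0.65, 0.57 and 0.33. Ptn held 175 of 242 UMIs in 1 cell (2.07), and the 22 KO-labelled UMIs of Fst were all in 1 cell, against 2 in the WT-labelled library (3.37, 1.35 to 6.51, without added CPM; 1.64 with it, and -0.46 without the 10 cells). Genes at 0 UMIs in a library allow only a bound. Against a floor of 3 UMIs, Spp1 (osteopontin, 34 and 0 UMIs, 4 cells, 16 of the UMIs in the cells set apart) was at least 12-fold and Asb5 (21 and 0 UMIs, 20 of them in the cells set apart) at least 7.44-fold higher in the WT-labelled library. The histone gene H2ac8 (0 and 28 UMIs, 25 in 1 cell), Tent5a (0 and 26 UMIs, 20 in 1 cell) and Tmem252 (0 and 24 UMIs, 22 in 1 cell) were at least 8.79-fold, 8.16-fold and 7.53-fold higher in the KO-labelled library. Without added CPM, Chodl (35 and 2 UMIs) had a log2 ratio of -4.22 (-7.32 to -2.26), Has1, a hyaluronan synthase (6 and 48 UMIs), 2.91 (1.69 to 4.43) and Sema3c, a guidance protein (2 and 23 UMIs), 3.44 (1.42 to 6.57). Each was in at most 10 cells of a library. With 10 CPM added, the ratios with all members and without the 10 cells were -2.02 and -0.25 for Asb5, 2.1 and 0.21 for Tmem252, 2.19 and 0.84 for Tent5a, and 1.69 and 0.51 for Sema3c, so these 4 were past the fold only with them. Chodl (-2.26 and -1.52), Has1 (2.02 and 1.31), Spp1 (-2.58 and -2.12) and H2ac8 (2.28 and 2.44) were past it both ways. Spp1 had 18 UMIs left without the 10 cells, under the minimum of 20. The smooth muscle genes Tagln (28 and 7 UMIs, -1.37) and Acta2 (20 and 2 UMIs, -1.62) and the matrix gene Dpt (10 and 34 UMIs, 1.21) were past the fold as well, with -0.87, -1.2 and 0.89 without the 10 cells.

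**Figure D5:**
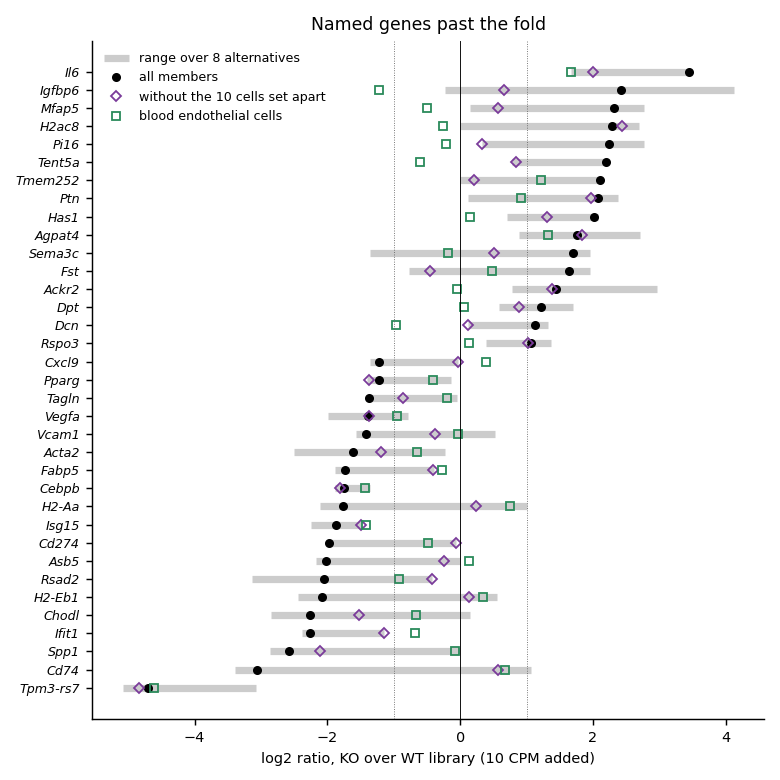
Log2 ratio of KO over WT (10 CPM added) of the 35 named genes past the fold: all members (black circles), without the 10 cells set apart (purple diamonds), blood endothelial cells (green squares), and the range over 8 other ways of processing (grey bars). Isg15, Ifit1, Cebpb, Tpm3-rs7 and Il6 stay past the fold over the whole grey bar (the sum of Tpm3-rs7 and Tpm3 has -0.04), while Cd74 runs from -3.4 to 1.06.

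Leukocyte trafficking genes had 1 of 36 past the fold upward (Ackr2) and 3 downward (Cxcl9, Vcam1 and Cd274), with a median of -0.03. For this and the remaining lists, the shares over all genes were 1.3% upward and 0.832% downward. Cxcl9, an interferon-induced chemokine (18 and 4 UMIs), had -1.23 with all members and -0.03 without the 10 cells. Ccl2 had a ratio of 0.37 with all members and -1.11 without the 5 deepest of each library. Sphk1, the kinase that makes sphingosine 1-phosphate, was lower (97.8 and 56.3 CPM, -0.70, -1.39 to -0.21). In the remaining lists few genes were past the fold. Of 20 junction genes, 0 were past the fold (median -0.01), as were 0 of the 22 flow-response genes (-0.20), the 37 immediate early and heat shock genes (0.15) and the 12 cell cycle genes (0.22). Of 39 basement membrane and matrix genes 1 (Dcn) was past the fold upward (median 0.15), of 24 lipid genes 2 (Fabp5 and Pparg) downward (0.13), and of 29 blood endothelial genes 1 (Fabp5) downward (0.03). Dcn and Fabp5 had ratios of 0.12 and -0.40 without the 10 cells, in place of 1.12 and -1.74.

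Pyroptosis, lytic cell death through gasdermin pores, and the cytokine IL-18 are the theme of the study, and little of their machinery was read in lymphatic cells. Of 18 listed genes, 4 reached 20 UMIs and 0 were past the fold. Among them were the caspase genes Casp4 (61.3 and 93.4 CPM, 0.54) and Casp8 (36.5 and 27.5 CPM, -0.31, -1.33 to 0.50) and Ninj1, which ruptures the membrane (33 and 51 UMIs). Gsdmd, the other main gasdermin, was read at 5 and 11 UMIs, Pycard at 5 and 4 UMIs and Casp1 at 2 and 0 UMIs. Il18 was read at 0 and 1 UMIs in the members and at 27.6 and 31.6 CPM in macrophages. Both chains of its receptor, Il18r1 and Il18rap, were at 0 UMIs, which allows up to 4.38 and 4.12 CPM.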

How the data were processed

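Single-cell RNA sequencing (10x Chromium, 5′ kit) was analysed in 2 libraries of gastrocnemius 14 days after cardiotoxin, 1 per genotype. Per the labels, Cell Ranger 2.1.1 and mm10 were named in the submitters' processing notes; the methods name Seurat, a doublet caller and a mitochondrial filter, and doublets were not called again. The methods name a later Cell Ranger version than the notes, and more cells than the 13432 in the deposited table. The deposited values are the natural log of UMIs per 10000 plus 1, made by the authors. UMI counts were recovered from each cell's smallest step: of 29528482 values above 0, 33 lay over 0.1 from a whole number.

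UMIs were summed over members and given as CPM; log2 ratios had 10 CPM added, genes needed 20 UMIs over both libraries, and a log2 ratio of 1 in size was called past the fold. Intervals are exact 95% Poisson or binomial (Clopper-Pearson), and Newcombe's for differences of shares. They cover counting error only. The interval of a log2 ratio is that of the ratio without added CPM, also where the ratio given has 10 CPM added. Shares were also taken after thinning to 1000 UMIs. Members and lists were chosen with earlier results of these data known. Named were all genes of the lymphatic, VEGFC, trafficking and pyroptosis lists, the leading genes of other lists, and the 12 highest and 12 lowest between the libraries and 20 highest and 10 lowest against blood endothelium; Cldn11 groups were chosen after values were seen. With 1 library per genotype nothing was tested; the steps were tested on simulated data. Some genes of the lists are not reported here. Genes of sex chromosomes used to tell sex (3) were left out. Python 3.11.15, numpy 2.4.6, pandas 2.3.3 and scipy 1.17.1 were used. Alternatives changed the rule, the cells kept, thinning, the added CPM, the UMI minimum, the mean and the comparison cells.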

Additional observations from a re-analysis of the deposited data

Results flagged for a closer look

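For 12 named genes the log2 ratio of KO over WT had opposite signs in lymphatic and blood endothelial cells with counting intervals on opposite sides of 0; the difference was not tested, since each library is 1 sample. Genes of FAPs were higher in lymphatic and lower in blood endothelial cells of the KO-labelled library: Dcn (1.12 and -0.97), Clec3b (0.90 and -0.71), Gsn (0.65 and -0.37), Igfbp6 (2.42 and -1.23) and Mfap5 (2.31 and -0.51). Abi3bp (0.36 and -0.97), a gene of the lymphatic identity list, ran the same way. Before thinning it was detected in 68.5% and 73.1% of members and in 89.8% and 91.7% of FAPs. Without the 10 members set apart, the values in lymphatic cells were 0.12, -0.96, -0.03, 0.65, 0.57 and 0.36 in that order.

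The class II genes Cd74 (-3.06 and 0.67), H2-Aa (-1.76 and 0.75) and H2-Eb1 (-2.08 and 0.34) ran the other way, and without the 10 members their ratios were 0.56, 0.23 and 0.13. The chemokine genes Cxcl2 (-0.91 and 0.42) and Cxcl9 (-1.23 and 0.38) had 0.65 and -0.03 without them. Tent5a, which lengthens RNA tails, had 2.19 in lymphatic and -0.60 in blood endothelial cells, and 0.84 without the 10 members. Of the 12, only Abi3bp kept a like ratio without the 10 members, without the 5 deepest of each library (0.52) and as a mean over cells (0.40).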

How the results depend on the processing

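Each choice was changed in turn; leaving out the 10 members set apart and leaving out the 5 deepest members were chosen after seeing the data. No paired analysis was possible because each genotype has 1 library. As a share of endothelial cells, the difference was 0.847 points in place of -0.0469. Genes past the fold upward and downward in the KO-labelled library (94 and 60) numbered 155 and 122 without members holding 2 markers of another cell type, 427 and 305 as a mean over cells, 7 and 10 with 50 CPM added, and 36 and 32 with a minimum of 50 UMIs; 144 were upward with no minimum and 55 after thinning. Against blood endothelium (444 higher, 573 lower), 168 were higher and 225 lower with 50 CPM added, 920 were lower after thinning and 282 lower against the venous cells alone. With fewer UMIs or cells, counting error is larger; with 50 CPM added, low genes cannot pass.

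Of the 35 named genes past the fold, 5 stayed past it in the same direction under all 8 alternatives run for them: Tpm3-rs7 (not its sum with Tpm3), Ifit1, Isg15, Cebpb and Il6. Ackr2 and Agpat4 stayed in 7 and Vegfa in 6. Still past it were 35 with cells of at least 1000 UMIs, 30 without the deepest members, 25 with all 3 lymphatic genes detected, 25 as a mean over cells, 23 after thinning, 16 without the 10 members, 15 without members holding other markers and 11 with 50 CPM added. Ratios that changed sign were Chodl (0.15) with all 3 genes detected; Cd74 (1.06), Fst (-0.77), H2-Aa (0.21), Igfbp6 (-0.23), Sema3c (-0.43) and Vcam1 (0.53) without members holding other markers; H2-Aa (0.20) and Vcam1 (0.22) as a mean over cells; H2-Aa (1.0), H2-Eb1 (0.55) and Sema3c (-1.36) after thinning; Cd74 (0.56), Fst (-0.46), H2-Aa (0.23) and H2-Eb1 (0.13) without the 10 members; and Cd74 (0.34), H2-Aa (0.23) and H2-Eb1 (0.26) without the deepest members.

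List medians were taken anew over the genes that still had 20 UMIs, and those outside their main interval were as follows. Without members holding other markers, identity genes had 0.38, capillary genes 0.83, blood endothelial genes -0.28, leukocyte trafficking 0.25, flow response -0.44, immediate early genes -0.20 and cell cycle -0.54. After thinning, collecting vessel genes had 0.33, leukocyte trafficking 0.23, immediate early genes 0.35, interferon genes -1.07, antigen presentation -0.24 and cell cycle -0.79. As a mean over cells, antigen presentation had -0.19, matrix -0.01 and cell cycle -0.28. Without the deepest members these 3 had -0.24, 0.07 and -0.24; over the same genes as with all members they had -0.05, 0.07 and -0.04. Antigen presentation had -0.36 with 50 CPM added and 0.10 without the 10 members, and identity genes had 0.10 with all 3 genes detected. Except where a setting's own construction shows it, the cause of these changes was not tested. The interferon median stayed below 0 under each alternative run for it.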

Other observations

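Venous endothelial cells, the embryonic source of lymphatic vessels, were few (14 and 13 cells gated on Ackr1, Selp and Lrg1), and their levels are given as values. The venous and lymphatic factor Nr2f2 stood at 322 and 224 CPM in them, against 327 and 342 CPM in lymphatic cells and 52.05 and 37.9 CPM in capillary-gated blood endothelial cells. Lbp stood at 131 and 77.5 CPM in venous cells, against 420.3 and 455 CPM in lymphatic cells. Sele, the adhesion molecule by which leukocytes enter from blood, stood at 151 and 155 CPM in venous cells and was at 0 UMIs in lymphatic cells. Igfbp5 stood at 1469.6 and 2081 CPM in lymphatic, 100.48 and 51.6 CPM in venous and 107 and 262 CPM in arterial cells, and 1 lymphatic cell of the KO-labelled library held 638 of its 1515 UMIs.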
